A study of Mus musculus with 6 samples.

Results

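The collagen genes of the mouse uterus were described in bulk RNA sequencing of 6 animals. Members were the protein-coding genes of the deposited table whose symbol has the form of a collagen chain (Col, a type number, a, a chain number), and 44 of 26018 listed genes fitted this form. The animals were 6-week-old females matched for body weight, 3 of genotype Tcf21d/d (conditional knockout, cKO) and 3 of genotype Tcf21f/f (control), each giving 1 uterine library, and none had received a treatment. TCF21 is a transcription factor of the basic helix-loop-helix family that acts in mesenchyme, and the study asked which genes may lie downstream of it as the uterus develops. The labels give neither the Cre driver of the conditional deletion nor the part of the gene that was removed, so the cells in which deletion took place are not known from them. The control animals carry floxed Tcf21 alleles.

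Collagens are secreted proteins built of 3 chains wound into a triple helix, and each gene encodes 1 kind of chain. Fibrillar collagens form the ropes that bear tension in connective tissue, fibril-associated collagens coat those ropes, type IV chains form the sheet of the basement membrane, and type VI chains form beaded microfilaments between cells and fibrils. In the uterus the stroma and the layers around smooth muscle are rich in types I, III, V and VI, while basement membranes surround the epithelium, the vessels and each smooth muscle cell.

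The libraries held between 14584450 and 16579573 reads on genes, and 16314 genes passed the filter on low reads. Normalised reads are counts scaled to a common library size. Tcf21 had 26.0, 0 and 0 normalised reads in the cKO libraries and 341.4, 151.9 and 144.1 in the controls, and its limma adjusted p (Benjamini-Hochberg) was 0.0765. The 6 uterine mesenchyme markers (Hoxa10, Hoxa11, Pgr, Esr1, Emx2, Hoxd10) had reads in every library. Together they took 0.0141%, 0.00863% and 0.00721% of reads in the cKO libraries, against 0.0449%, 0.0361% and 0.0128% in the controls. Control replicate 3 lay within the cKO range of this sum, and also within that of the 6 epithelial markers, at 0.00287% against 0.00232% to 0.00442% in the cKO libraries and 0.0322% and 0.0158% in the other 2 controls. Control replicate 1 held liver transcripts (8 markers, 1.35% of its reads, against at most 0.00878% elsewhere). Skeletal muscle markers were abundant in all 6 libraries, with 6.56%, 9.4% and 8.99% of reads in the cKO libraries and 3.19%, 6.27% and 4.37% in the controls.

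No collagen gene passed the test. Of the 44 genes 41 had enough reads to be tested, and 0 of 41 had a limma adjusted p under 0.05, a level that 1.16% of all tested genes reached (0.889% lower and 0.276% higher). At an unadjusted limma p under 0.05 there were 6 of 41, 5 higher and 1 lower in the cKO libraries, against 13.7% of all tested genes (6.11% higher and 7.6% lower). Of the other tools, edgeR and limma-voom called 0, where they called 0.926% and 0.435% of all genes. DESeq2 called 2, Col6a4 and Col9a2, both lower in the cKO libraries, and 5.26% of all genes. Of the 44 genes 3 have, in the authors' deposited table, an adjusted p under 0.05, Col5a3 higher, Col6a4 lower and Col9a2 lower, against 3.21% of all genes listed there (0.872% higher and 2.34% lower). The 3 cKO libraries lay wholly on one side of the 3 controls for 6 of 41 genes (4 above, 2 below), against 19.6% of all tested genes (9.04% above, 10.5% below). These totals by limma and by overlap lay near or below the shares of all genes. The log2 fold change (cKO over control) was positive for 27 of 41 genes and the median was 0.18, beside 50.3% positive and a median of 0 over all genes. That count was 21 of 41 with DESeq2, with edgeR and without cKO replicate 3. It was 23 of 41 with a median of 0.05 without control replicate 1, and 26 of 41 with limma-voom. Other settings gave more, with 28 of 41 without cKO replicate 1 and 29 of 41 without cKO replicate 2. Without control replicate 2 it was 29 of 41 with a median of 0.29. The predominance of positive values thus varied with the tool and with the libraries kept. When control replicates 1 and 3 were both left out, a choice made after seeing the data, it was 19 of 41 with a median of -0.12. In bulk tissue, fewer cells of a type and less RNA per cell cannot be told apart.

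**Figure D1:**
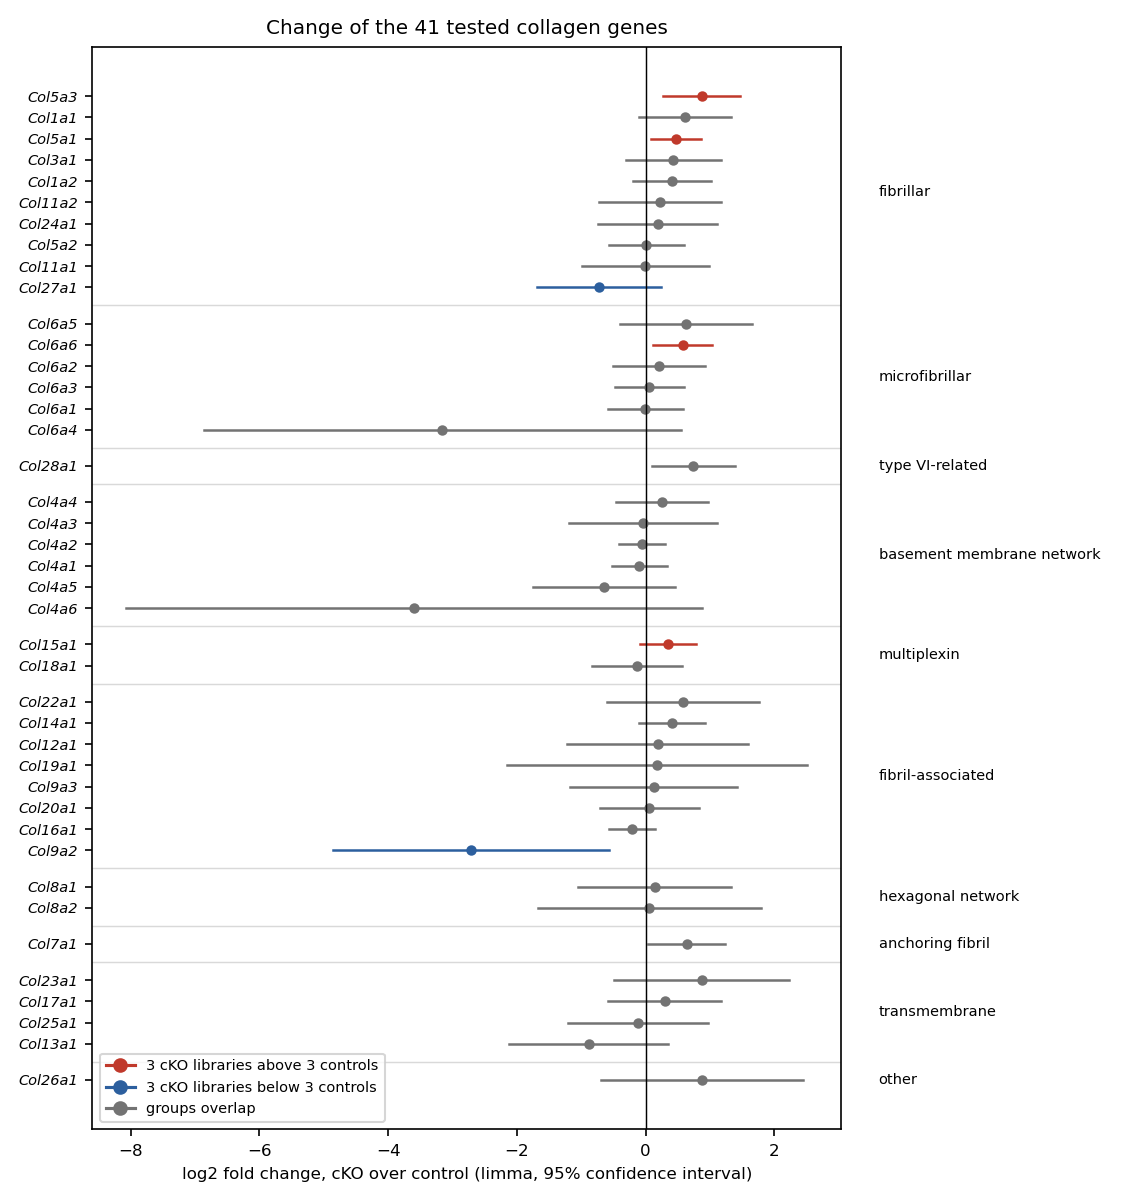
Log2 fold change (cKO over control) of the 41 tested collagen genes, grouped by class, with the 95% confidence interval of the limma fit; red marks genes whose 3 cKO libraries lay above all 3 controls, blue those whose 3 cKO libraries lay below, and grey those that overlapped. Col6a4, Col4a6 and Col9a2 stand at -3.16, -3.60 and -2.72 with wide intervals, while the abundant type I, III, IV and VI chains lie within 1 log2 unit of zero.

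Levels were compared between genes per kb of annotated exon length. On this scale the 3 most abundant collagen genes were the same in both groups. Col1a1, the main chain of type I collagen, had a level of 7118 ± 1544 normalised reads per kb in cKO and 4838 ± 1863 in control libraries (SD, n = 3 each). Col3a1, which forms the thinner fibrils of distensible organs, had 5918 ± 1309 per kb in cKO and 4572 ± 1724 in controls. Col1a2, the partner chain of Col1a1, had 5461 ± 994.5 per kb in cKO and 4152 ± 1031 in controls. These 3 neighbours in the order did not differ beyond their spread. Together they made up 60.7%, 55.9% and 62.2% of the collagen level per kb in the cKO libraries, against 52.9%, 56.6% and 46.4% in the controls. Col6a1 and Col6a2 followed in both groups, and Col4a1, Col4a2, Col5a1, Col5a3, Col6a3 and Col15a1 filled the next places in an order that differed between the groups. Col5a3 was seventh by level per kb in cKO and eleventh in control libraries. Col4a6 stood at place 39 of 44 in cKO and 25 in control libraries, Col9a2 at place 42 in cKO and 28 in control libraries, and Col6a4 at place 26 in cKO and 13 in control libraries.

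**Figure D2:**
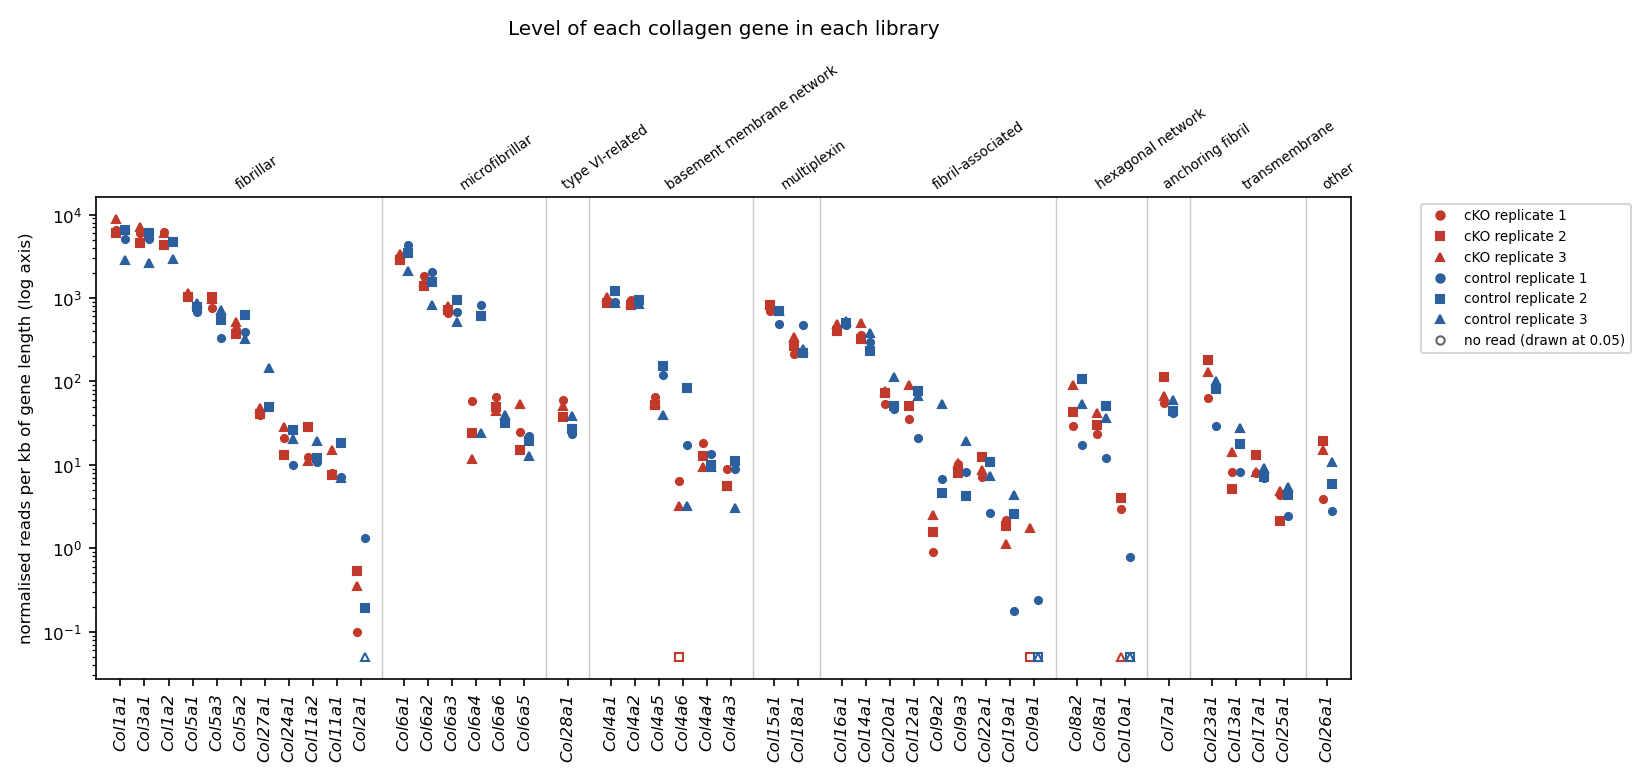
Level of all 44 collagen genes in each library in normalised reads per kb of exon length on a log axis, grouped by class and sorted within a class by mean level, with cKO left of control; open symbols mark libraries with no read. Levels span over 4 orders of magnitude, from Col1a1 to Col2a1 and Col9a1, and in Col6a4 control replicate 3 sits among the cKO libraries while the other 2 controls stand above them.

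The deposited collagen reads made up 1.71%, 1.41% and 1.84% of all reads in the cKO libraries, against 1.32%, 1.74% and 1.08% in the controls, so the groups overlapped. Fibrillar genes held 68.1%, 65.3% and 70.0% of the collagen level per kb in the cKO libraries, against 58.1%, 63.3% and 57.7% in the controls. Here the groups did not overlap, by the margin between cKO replicate 2 and control replicate 2. The summed level of the fibrillar genes did overlap, at 21027, 17303 and 24714 normalised reads per kb in the cKO libraries against 16408, 19298 and 10593 in the controls. Microfibrillar genes held 19.0%, 18.9% and 16.6% in the cKO libraries, against 27.9%, 21.8% and 19.2% in the controls. These did not overlap either, by the narrow margin between cKO replicate 1 and control replicate 3. Shares of the same total depend on each other. With 3 against 3 libraries an exact two-sided permutation test cannot give a p below 0.1, so no test was made of these shares. The summed level of the microfibrillar genes itself overlapped, at 5870, 5017 and 5874 normalised reads per kb in the cKO libraries against 7864, 6636 and 3529 in the controls.

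**Figure D3:**
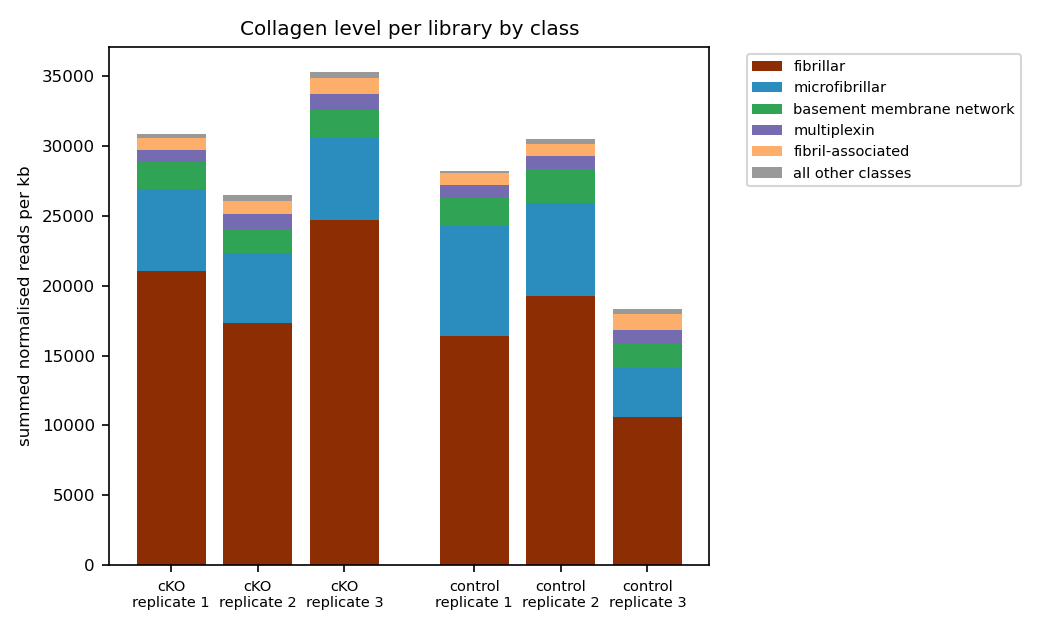
Summed collagen level of each library in normalised reads per kb, stacked by class, with the 3 cKO libraries on the left and the 3 controls on the right. Control replicate 3 has the lowest total, 18344, against 26483 to 35325 in the cKO libraries and 28228 and 30501 in the other 2 controls.

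Stretches upstream of the start are shown first for the cluster of type VI genes on chromosome 9, because its members, which lie side by side, did not have values that ran together. Col6a6, Col6a5 and Col6a4 lie in this order on the minus strand with 27917 and 28810 bases between them and no other gene in the gaps. The sequences are the bases before each annotated start in RefSeq (GRCm38.p6, 5′ to 3′ on the gene's strand, without bases that belong to the gene's own exons). Their positions are chr9:106096784-106096941 for Col6a4, chr9:105960644-105960893 for Col6a5 and chr9:105828161-105828335 for Col6a6. Capitals mark CANNTG, the E-box that basic helix-loop-helix factors as a family bind, or the CArG box, the motif of serum response factor, the regulator of smooth muscle genes.
Col6a4: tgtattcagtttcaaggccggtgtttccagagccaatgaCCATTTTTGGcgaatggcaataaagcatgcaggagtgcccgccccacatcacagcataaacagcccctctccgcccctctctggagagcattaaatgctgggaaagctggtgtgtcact
Col6a5: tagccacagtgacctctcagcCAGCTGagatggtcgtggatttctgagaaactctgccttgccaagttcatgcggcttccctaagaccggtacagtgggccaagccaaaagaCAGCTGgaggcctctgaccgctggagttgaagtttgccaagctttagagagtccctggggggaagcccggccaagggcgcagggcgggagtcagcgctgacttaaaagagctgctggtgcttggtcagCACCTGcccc
Col6a6: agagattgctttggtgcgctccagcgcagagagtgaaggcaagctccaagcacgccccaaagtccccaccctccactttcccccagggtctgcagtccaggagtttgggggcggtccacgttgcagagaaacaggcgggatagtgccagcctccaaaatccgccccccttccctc
The stretch before Col6a4 held 1 CArG box, which begins 211 bases before the RefSeq start, and no CANNTG, while that before Col6a5 held 3 CANNTG and that before Col6a6 neither motif. Of 44 members 35 had a RefSeq window of 250 bases, in 38 windows. Both strands were searched. The CArG box was found in 2.63% of the collagen windows, the single one of Col6a4, against 1.47% of 32851 windows of all genes. CANNTG was found in 19 of 38 collagen windows against 66.2% of all windows, and its form CAGCTG, whose matches are also matches of CANNTG, in 15.8% against 13.0%. TATAAA was found in 13.2% against 12.4%. Such matches describe letters only.

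Microfibrillar chains had positive log2 fold changes in 4 of 6 members, with a median of 0.13, and 0 passed the test. Col6a4 (ENSMUSG00000032572, chr9:105989454-106096783, minus strand, GRCm38) encodes a chain that in the mouse can take the place of the alpha 3 chain of type VI collagen. Its normalised reads were 499.9, 204.8 and 100.5 in the cKO libraries, against 6980.3, 5238.7 and 203.7 in the controls. Control replicates 1 and 2 were high, while control replicate 3 lay inside the cKO range, so the groups overlapped. The means were 268.4 ± 207.1 in cKO and 4141 ± 3519 in control libraries (SD, n = 3 each), and the log2 fold change was -3.16 ± 1.49 (SE; limma adjusted p 0.437). Without control replicate 3 it was -4.79 with a limma adjusted p of 0.0615, and without control replicate 1 it was -2.24. The authors' deposited table gives -3.95 with an adjusted p of 0.0425. In the annotation 3.4% of the exon bases of Col6a4 overlap genes on the other strand, and no source used here gives the strand setting of the counting. The level per kb of Col6a4 relative to Col6a3 was 0.0892, 0.0337 and 0.0148 in the cKO libraries, against 1.19, 0.645 and 0.0469 in the controls, a ratio chosen after the values were seen. The summed uterine mesenchyme and epithelial markers were high in the same 2 controls and low in control replicate 3, and their part in the result was not tested.

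The neighbours of Col6a4 did not share this pattern. Col6a6, another chain of this kind, had 600.3, 456.4 and 400.0 normalised reads in the cKO libraries and 308.5, 294.8 and 364.8 in the controls. All 3 cKO libraries lay above the controls, with a log2 fold change of 0.57 ± 0.21, an unadjusted limma p of 0.0205 and an adjusted p of 0.259. For Col6a5 the reads were 233.2, 140.4 and 504.9 in the cKO libraries, against 207.3, 180.6 and 119.2 in the controls, with cKO replicate 3 high and the groups overlapping. Transcripts of Col6a5 and Col6a6 share a stretch of 572 bases with at least 95% identity, so the split of reads between them is uncertain.

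The 3 classical type VI chains, which make up most of the microfilament, were within the spread of the controls. Col6a1 had 14045, 12426 and 14919 normalised reads in the cKO libraries and 18651, 15163 and 9287 in the controls. Col6a2 and Col6a3 overlapped in the same way, with log2 fold changes of 0.20 ± 0.32 and 0.05 ± 0.24. For Col6a3 the 95% interval ran from -0.48 to 0.59. The level per kb of Col6a3 relative to Col6a1 was 0.205, 0.251 and 0.234 in the cKO libraries, against 0.161, 0.275 and 0.24 in the controls. Col28a1, a related chain known from the sheath of peripheral nerve in the mouse, had 294.6, 183.3 and 249.7 normalised reads in the cKO libraries and 114.6, 131.2 and 189.5 in the controls. Only cKO replicate 2 and control replicate 3 crossed, and the log2 fold change was 0.74 ± 0.28 with an unadjusted limma p of 0.0270 and an adjusted p of 0.288. Schwann cell markers moved with it. Of these 5 markers 2 rose by limma, among them Mbp at an adjusted p of 0.0412. The sum of the markers was 0.07%, 0.047% and 0.0676% of reads in the cKO libraries against 0.0275%, 0.0351% and 0.0472% in the controls, and their part in the result was not tested.

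**Figure D4:**
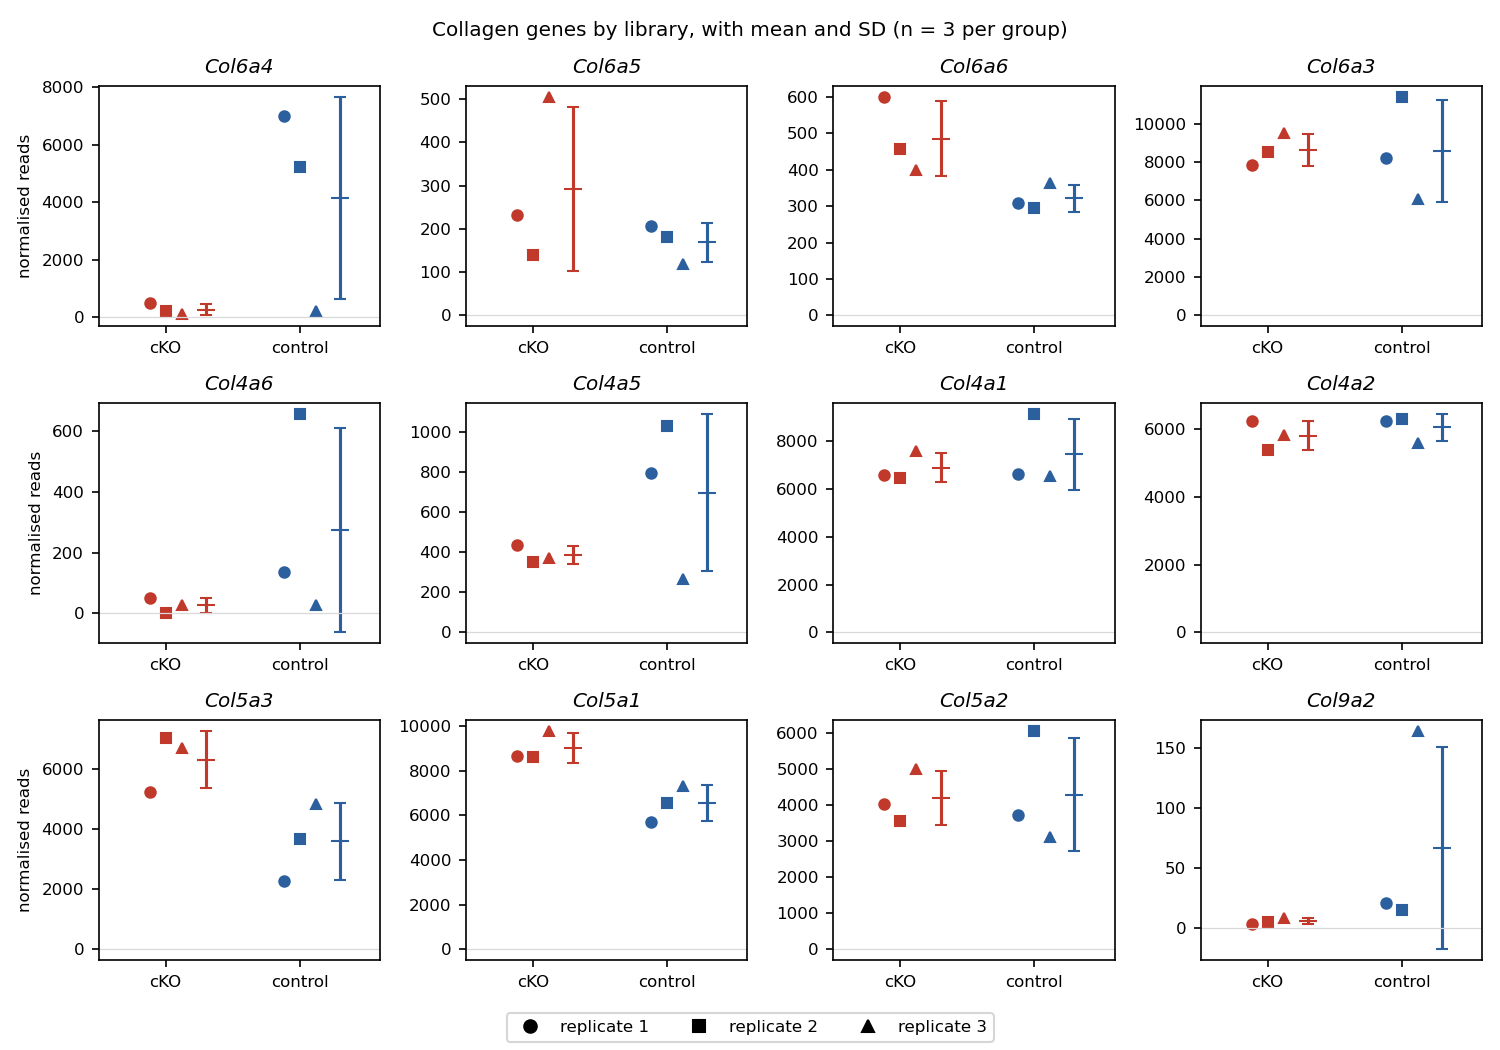
Normalised reads of 12 collagen genes in each library (symbols by replicate number) with the mean and SD beside them, cKO on the left and control on the right of each panel, on linear axes that include zero. Col5a3, Col5a1 and Col6a6 lie higher in all 3 cKO libraries than in any control, Col9a2 lies lower, and Col6a4, Col4a6 and Col4a5 are low in the cKO libraries and in control replicate 3.

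Fibrillar chains had positive log2 fold changes in 8 of 10 tested members, with a median of 0.32, against 50.3% positive and a median of 0 over all genes, and 0 passed the test. Without control replicate 1 it was 6 of 10 with a median of 0.21, and without cKO replicate 3 it was 6 of 10. Without cKO replicate 2 it was 8 of 10 with a median of 0.49. It was 9 of 10 without cKO replicate 1 and also without control replicate 2. Without control replicates 1 and 3 it was 5 of 10 with a median of 0.02. Col5a3 (ENSMUSG00000004098, chr9:20770050-20815067, minus strand, GRCm38), one of the 3 chains of type V collagen, which nucleates fibrils and limits their width, had 5232.4, 7019.9 and 6691.4 normalised reads in the cKO libraries, against 2286.1, 3668.6 and 4821.9 in the controls. All 3 cKO libraries were above all 3 controls, with means of 6315 ± 951.5 in cKO and 3592 ± 1270 in control libraries (SD, n = 3 each), a ratio of 1.76. The log2 fold change was 0.87 ± 0.27, with a 95% interval from 0.26 to 1.47, and the limma adjusted p was 0.188. The authors' deposited table gives 0.81 with an adjusted p of 0.0432, and DESeq2 on the recovered reads gave an adjusted p of 0.0542. It was the member with the smallest adjusted p in limma. The bases before its start, chr9:20815068-20815317, are shown for this reason, and the capitals mark 1 CAGCTG, which begins 81 bases before the start.
Col5a3: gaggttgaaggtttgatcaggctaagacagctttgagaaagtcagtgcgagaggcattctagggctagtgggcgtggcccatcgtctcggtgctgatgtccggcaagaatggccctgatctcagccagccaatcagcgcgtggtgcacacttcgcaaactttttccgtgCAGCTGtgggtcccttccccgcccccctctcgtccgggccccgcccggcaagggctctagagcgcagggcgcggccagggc

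The partner chains of type V collagen had unlike values. Col5a1, present in most type V molecules, had 8664.8, 8613.3 and 9784.0 normalised reads in the cKO libraries and 5722.0, 6567.9 and 7338.7 in the controls. These groups did not overlap either, with a log2 fold change of 0.47 ± 0.17, an unadjusted limma p of 0.0235 and an adjusted p of 0.272. In contrast, Col5a2 had 4016.0, 3546.5 and 5002.0 normalised reads in the cKO libraries, against 3707.8, 6047.5 and 3105.7 in the controls, and a log2 fold change of 0.01 ± 0.26. The level per kb of Col5a3 relative to Col5a2, a ratio chosen after the values were seen, was 1.84, 2.79 and 1.88 in the cKO libraries, against 0.868, 0.854 and 2.19 in the controls, with control replicate 3 inside the cKO range. For Col5a1 relative to Col5a2 it was 2.44, 2.74 and 2.21 in the cKO libraries and 1.74, 1.23 and 2.67 in the controls, which overlapped. Skeletal muscle markers (13 listed, 12 tested, 0 called), tendon markers (6 listed, 0 called) and macrophage markers (6 listed, 0 called) had higher sums in all 3 cKO libraries than in any control, as Col5a3 and Col5a1 did. For tendon markers the sums were 0.0733%, 0.0877% and 0.0765% of reads in the cKO libraries, against 0.0581%, 0.0436% and 0.0715% in the controls. Most of these reads were of Thbs4. Thbs4 and Scx were higher in all 3 cKO libraries than in any control. Fmod, Kera, Mkx and Tnmd overlapped, and the log2 fold changes of Kera, Mkx and Tnmd were negative. Macrophage markers took 0.137%, 0.117% and 0.0975% of reads in the cKO libraries, against 0.0664%, 0.0874% and 0.0704% in the controls. C1qa, C1qb, Csf1r and Mrc1 were higher in all 3 cKO libraries than in any control. Adgre1 and Cd68 overlapped, and the log2 fold change of Adgre1 was negative. The part of these tissues and cells in the type V values was not tested.

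Type I and type III chains shared their lowest libraries. Col1a1 had 43001, 38962 and 58183 normalised reads in the cKO libraries, against 32996, 43314 and 18950.3 in the controls. Col1a2 had 76091, 53648 and 73834 in the cKO libraries and 59964, 57961 and 36838 in the controls. Col3a1 had 59503, 44592 and 70169 in the cKO libraries and 49870.1, 58744 and 26019 in the controls. For all 3 genes control replicate 3 was the lowest library of all and cKO replicate 2 the lowest of its group, and the groups overlapped. The log2 fold changes were 0.62 ± 0.32 for Col1a1, 0.41 ± 0.27 for Col1a2 and 0.43 ± 0.33 for Col3a1, with limma adjusted p of 0.441, 0.554 and 0.625. Without control replicate 3 the log2 fold changes were 0.28 for Col1a1, 0.19 for Col1a2 and 0.08 for Col3a1. Without control replicates 1 and 3, that of Col3a1 was -0.04. The level per kb of Col1a1 relative to Col1a2 was 1.07, 1.38 and 1.49 in the cKO libraries, against 1.04, 1.41 and 0.974 in the controls. That of Col3a1 relative to Col1a1 was 0.925, 0.765 and 0.806 in the cKO libraries and 1.01, 0.907 and 0.918 in the controls, which overlapped as well. The 8 fibroblast markers, among them Dcn and Pdgfra, had 0 called members, and their sum was 0.266%, 0.234% and 0.296% of reads in the cKO libraries against 0.237%, 0.361% and 0.334% in the controls.

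The other fibrillar genes were far less abundant. Col27a1, known from cartilage, had 522.2, 532.4 and 617.6 normalised reads in the cKO libraries, against 636.5, 641.7 and 1911.0 in the controls. The groups did not overlap, with control replicate 3 far above the rest. The log2 fold change was -0.73 ± 0.41 (limma adjusted p 0.501), and -0.20 without control replicate 3. Col11a1, Col11a2 and Col24a1, chains of cartilage and bone fibrils, had between 73.2 and 234.6 normalised reads in any library and overlapped between groups. The defining chain of cartilage, Col2a1, had 21 reads in all 6 libraries together and was not tested.

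Basement membrane chains had negative log2 fold changes in 5 of 6 members, with a median of -0.08, and 0 passed the test. Col4a1 and Col4a2 form the standard network of all basement membranes, and their genes stand head to head on chromosome 8 with starts 21 bases apart. Col4a2 had 6242.4, 5384.7 and 5825.1 normalised reads in the cKO libraries, against 6264.6, 6320.7 and 5611.0 in the controls, and its log2 fold change was -0.06 ± 0.16 with a 95% interval from -0.42 to 0.30. Col4a1 had a log2 fold change of -0.10 ± 0.19, and its level per kb relative to Col4a2 was 0.936, 1.06 and 1.15 in the cKO libraries and 0.938, 1.28 and 1.03 in the controls. Col4a3 and Col4a4, chains of the kidney filter whose starts lie 72 bases apart on chromosome 1, had at most 194.2 normalised reads in a library and log2 fold changes of -0.04 ± 0.51 and 0.25 ± 0.32.

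The remaining pair, Col4a6 and Col4a5, encodes chains of the network around smooth muscle and some epithelia. Col4a6 (ENSMUSG00000031273, chrX:141165403-141474076, minus strand, GRCm38) had 51.1, 0 and 25.4 normalised reads in the cKO libraries, against 136.6, 657.9 and 25.8 in the controls. Control replicate 3 again lay inside the cKO range, and control replicate 2 was the highest. A count of 0 in cKO replicate 2 allows up to 2.93 normalised reads (3 reads). The log2 fold change was -3.60 ± 1.83, with a 95% interval from -8.07 to 0.88 and a limma adjusted p of 0.468, and the size of this value depends on the added 1. Col4a5 (ENSMUSG00000031274, chrX:141475385-141689234, plus strand, GRCm38) had 439.5, 352.0 and 371.3 normalised reads in the cKO libraries and 797.4, 1033.5 and 266.9 in the controls. Here control replicate 3 was below every cKO library. With all libraries the log2 fold change was -0.65 ± 0.47 and the limma adjusted p 0.613. Without control replicate 3 it was -1.23 with a limma adjusted p of 0.0241, a level that 1.74% of tested genes reached in that fit. Without control replicates 1 and 3, which leaves a single control, it was -1.42. For Col4a6 the value without control replicate 3 was -4.76 (limma adjusted p 0.397).

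Both genes stand head to head with starts 1309 bases apart, and the bases before each start are shown because the pair shares this interval. The stretches are chrX:141474077-141474326 for Col4a6 and chrX:141475169-141475384 for Col4a5, and the capitals mark CANNTG.
Col4a6: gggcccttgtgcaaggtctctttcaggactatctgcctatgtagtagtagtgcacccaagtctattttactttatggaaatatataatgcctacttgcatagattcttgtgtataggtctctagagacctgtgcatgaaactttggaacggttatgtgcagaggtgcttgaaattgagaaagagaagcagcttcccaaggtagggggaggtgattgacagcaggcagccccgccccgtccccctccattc
Col4a5: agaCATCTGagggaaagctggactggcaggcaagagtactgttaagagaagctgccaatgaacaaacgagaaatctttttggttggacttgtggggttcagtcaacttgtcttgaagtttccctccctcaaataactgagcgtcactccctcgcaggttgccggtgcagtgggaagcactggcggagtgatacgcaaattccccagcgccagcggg
The stretch before Col4a6 held no CANNTG and that before Col4a5 held 1, which begins 247 bases before the RefSeq start. That start lies downstream of the annotated one used for the distance between the genes. Neither held a CArG box. Most smooth muscle markers were lower in the cKO libraries. Of these 8 markers 6 fell by limma, against 0.889% of all tested genes, with log2 fold changes from -1.54 (Smtn) to -6.86 (Actg2). Des and Synpo2 were not called. Des, the marker with the most reads, had 60821, 92182 and 75687 normalised reads in the cKO libraries, against 60998, 74438 and 82710 in the controls. The sum of the 8 markers, which includes Des, was 0.48%, 0.667% and 0.551% of reads in the cKO libraries, against 0.931%, 1.44% and 1.36% in the controls. Control replicate 3 was among the high libraries. The epithelial markers (6 listed, 5 tested, 0 called) were low in control replicate 3, as both type IV chains were. The part of either tissue in these values was not tested.

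Multiplexins sit between basement membrane and fibrils, and their 2 genes had unlike values. Col15a1 had 4457.4, 5281.3 and 5217.4 normalised reads in the cKO libraries and 3093.3, 4397.5 and 4383.3 in the controls. The 3 cKO libraries lay above the controls by a small margin, with a log2 fold change of 0.35 ± 0.19 (limma adjusted p 0.474). Col18a1, the source of endostatin, had 1476.5, 1868.3 and 2378.9 normalised reads in the cKO libraries, against 3337.1, 1526.9 and 1709.9 in the controls. Control replicate 1, the library with liver transcripts, was the highest. Its log2 fold change was -0.14 ± 0.31 with all libraries and 0.21 without control replicate 1.

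Fibril-associated chains had positive log2 fold changes in 6 of 8 tested members by limma, with a median of 0.15, and in 3 of 8 by DESeq2 and by edgeR. Col9a2 (ENSMUSG00000028626, chr4:121039385-121055322, plus strand, GRCm38), a chain of type IX collagen of cartilage, had 2.8, 4.9 and 7.7 normalised reads in the cKO libraries, against 20.7, 14.4 and 164.6 in the controls. All cKO libraries were below all controls, and control replicate 3 stood far above the rest. These values rest on 233 reads in all, 185 of them in control replicate 3. The means were 5.13 ± 2.48 in cKO and 66.6 ± 85.0 in control libraries (SD, n = 3 each), and the log2 fold change was -2.72 ± 0.95 (limma adjusted p 0.249). Without control replicate 3 it was -1.66 with a limma adjusted p of 0.456, while the authors' deposited table gives -3.71 with an adjusted p of 0.0037. Its partner chain Col9a3 had 40.0, 31.2 and 40.9 normalised reads in the cKO libraries and 31.7, 16.2 and 74.7 in the controls, and Col9a1, the other chain, had 9 reads in all. The level per kb of Col9a2 relative to Col9a3, chosen after the values were seen, was 0.0869, 0.195 and 0.235 in the cKO libraries, against 0.814, 1.11 and 2.74 in the controls, without overlap. Cartilage markers were near 0, with at most 0.00179% of reads for 7 markers together. Neuron markers (5 listed, 3 tested, 2 called lower) were highest in control replicate 3, at 0.0226% of reads. They took at most 0.00149% in the cKO libraries and 0.00335% in the other 2 controls, with Snap25 at 0 in all cKO libraries. The part of neurons in the value of Col9a2 was not tested.

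The abundant fibril-associated genes overlapped between the groups. Col14a1 had 2543.2, 2291.5 and 3509.2 normalised reads in the cKO libraries and 2058.1, 1623.1 and 2639.6 in the controls, with a log2 fold change of 0.40 ± 0.23 (limma adjusted p 0.490), and 0.22 without cKO replicate 3. Col16a1 had a log2 fold change of -0.22 ± 0.16, and Col12a1 one of 0.19 ± 0.58. The log2 fold change of Col12a1 took both signs when single libraries were left out. Col22a1 had a log2 fold change of 0.59 ± 0.52 with groups that overlapped. Col20a1 and Col19a1 had no settled direction, with log2 fold changes of 0.06 and 0.18 by limma and of -0.05 and -0.49 by DESeq2. Col19a1 had at most 30.2 normalised reads in a library.

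Among the remaining classes, Col7a1, the chain of the anchoring fibrils beneath stratified epithelia, had 574.2, 1151.6 and 687.3 normalised reads in the cKO libraries and 430.4, 458.4 and 613.9 in the controls. The groups overlapped at cKO replicate 1 and control replicate 3, and the log2 fold change was 0.64 ± 0.27 with an unadjusted limma p of 0.0407 and an adjusted p of 0.336. Without cKO replicate 2, its highest library, the value was 0.34. The 4 transmembrane collagens divided evenly by direction. Col23a1 had 365.2, 1023.9 and 745.8 normalised reads in the cKO libraries and 165.8, 468.2 and 581.8 in the controls, with a log2 fold change of 0.87 ± 0.57, and 0.32 without control replicate 1. Col13a1, a component of the neuromuscular junction, had 38.1, 23.4 and 66.3 normalised reads in the cKO libraries and 37.8, 80.9 and 126.3 in the controls, with a log2 fold change of -0.89 ± 0.55, and -0.49 without control replicate 3. Both pairs of groups overlapped, as did those of Col17a1, of hemidesmosomes, and Col25a1.

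Col8a1 and Col8a2, the chains of a hexagonal network of vessel walls, had no settled direction. Col8a1 had 183.1, 237.9 and 328.2 normalised reads in the cKO libraries, against 95.1, 393.6 and 285.6 in the controls. Col8a2 had 130.1, 191.1 and 406.6 in the cKO libraries and 76.8, 481.7 and 241.1 in the controls. In both, control replicate 1 was the lowest and control replicate 2 the highest control, and their log2 fold changes of 0.14 and 0.06 turned negative with edgeR and DESeq2. Col10a1, a marker of hypertrophic cartilage, had 25 reads in all and was not tested. Col26a1, first described in testis and ovary, had 31.6, 159.9 and 124.9 normalised reads in the cKO libraries and 23.2, 48.5 and 88.1 in the controls, with a log2 fold change of 0.88 ± 0.69, and 0.39 without control replicate 1. It shares stretches of up to 243 bases at 95% identity or more with transcripts of 42 other genes, so its reads are uncertain.

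Spread within the groups bore on every comparison above. The coefficient of variation was larger among the controls than among the cKO libraries for 31 of 41 genes, with a median of 23.7% in cKO and 38.5% in control libraries. The highest control exceeded the lowest 34.3-fold for Col6a4, 25.5-fold for Col4a6 and 11.4-fold for Col9a2. cKO replicate 3 was the highest cKO library for 22 genes and the lowest for 6. Control replicate 3 was the highest control for 18 genes and the lowest for 16, and control replicate 1 was the highest for 7 and the lowest for 20. The controls also differed more from each other over all genes with enough reads. Chi-square per degree of freedom, a measure of the difference within a pair of libraries, was 208, 166.2 and 66.51 for pairs of controls. For pairs of cKO libraries it was 49.97, 27.82 and 21.05.

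The machinery that makes collagen showed no called gene. Of 35 listed genes for folding, secretion, processing and crosslinking 34 were tested, 0 passed by limma, and 1 lower and 3 higher had an unadjusted p under 0.05, against 7.6% lower and 6.11% higher over all genes. Positive log2 fold changes numbered 23 of 34, with a median of 0.16, against 50.3% over all genes. Creb3l1, a factor that switches on collagen genes in secretory cells of bone, had 812.1, 836.7 and 997.7 normalised reads in the cKO libraries, against 741.3, 325.3 and 336.3 in the controls. The groups did not overlap, and the log2 fold change was 1.02 ± 0.31 (limma adjusted p 0.184). Pcolce, an enhancer of procollagen cleavage, had 6439.4, 6164.8 and 5954.4 normalised reads in the cKO libraries and 5563.5, 3175.2 and 3926.9 in the controls, with a log2 fold change of 0.59 ± 0.22 (limma adjusted p 0.267). Loxl3, a crosslinking oxidase, had a log2 fold change of 0.61 ± 0.21 (limma adjusted p 0.226). P3h2, a prolyl hydroxylase of basement membrane collagen, had one of -0.78 ± 0.34 (limma adjusted p 0.350). Serpinh1, the collagen chaperone, and Lox, the main crosslinking oxidase, had log2 fold changes of 0.28 ± 0.22 and -0.05 ± 0.22.

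Receptors that bind collagen included the only called genes of the system. Of 11 listed receptors 10 were tested, 2 fell and 0 rose, against 0.889% lower and 0.276% higher over all genes, and the median log2 fold change was -0.38. Itga1, the integrin chain of smooth muscle and stromal cells that binds types I and IV, had 402.4, 577.3 and 540.3 normalised reads in the cKO libraries, against 927.9, 1758.8 and 1772.2 in the controls. Every cKO library was below every control, with a log2 fold change of -1.51 ± 0.27 (limma adjusted p 0.0379). Ddr1, a collagen-activated tyrosine kinase of epithelia, had 386.6, 429.1 and 427.6 normalised reads in the cKO libraries, against 771.8, 716.3 and 682.4 in the controls. These groups did not overlap either, with a log2 fold change of -0.80 ± 0.16 (limma adjusted p 0.0491). Both calls stood close to the threshold, and the number of called receptors was 0 or 1 when any single library was left out. The authors' deposited table gives adjusted p of 5.21e-06 for Itga1, 0.0104 for Ddr1 and 0.0122 for Itgb1. Itgb1, the shared integrin partner, had 4952.7, 4047.8 and 4746.7 normalised reads in the cKO libraries, against 6912.0, 10225.7 and 6615.4 in the controls, with a log2 fold change of -0.77 ± 0.21 (limma adjusted p 0.145). Itga10, known from cartilage, had 225.8, 285.7 and 249.7 normalised reads in the cKO libraries and 178.0, 132.1 and 166.4 in the controls, with a log2 fold change of 0.68 ± 0.23 (limma adjusted p 0.225). Of the 8 smooth muscle markers the 6 that fell moved with Itga1 and Itgb1, and their part in these values was not tested.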

How the data were processed

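Total RNA from 6 uteri, each from a separate animal, was sequenced as 1 library per animal, per the labels. The submitters' processing notes name the tools HISAT2, SAMtools and featureCounts, with no version, and GRCm39 as the build. The coordinates of the deposited table equal those of GENCODE vM21 (GRCm38) for 25257 of 26006 genes found there, and for all 44 collagen genes, so they are given as GRCm38.

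The deposited signal values, called normalised reads in the text, are read counts of each gene after the authors had scaled every library by a factor of its own. In each library 100% of values were whole multiples of 1 step within 0.01 reads, and whole reads were recovered from the steps. The authors also deposited log2 fold changes and p-values of their own comparison, with a tool that no source used here names.

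The planned test for counts gave way to limma 3.58.1 (R 4.3.3) on log2(value + 1), with trend and robust variance, because the values were normalised. Fold changes of genes with few reads depend on the added 1 and may understate the change. Where a library has no read they may also overstate it. Genes were filtered with filterByExpr of edgeR 4.0.16 on the recovered reads, and 3 cKO were compared with 3 control libraries with no covariate. The Benjamini-Hochberg adjustment ran over 16314 genes, of which 190 were called at 0.05. The count test of edgeR (quasi-likelihood, robust) on the recovered reads called 151. Other alternatives were DESeq2 1.42.0, limma-voom, pseudocounts of 0.5 and 5, other filters and scalings, a replicate block and leaving out each library. Levels per kb are normalised reads divided by the length of all annotated exons. Shared stretches were found with blastn 2.17.0 (at least 95% identity over at least 100 bases). Floors cover counting error only, since PCR copies without molecular identifiers do not count as separate molecules. The 6 libraries differed by more than sampling noise. The limma and edgeR tests were tested on simulated data.

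The genes, classes and lists were chosen with earlier results of these data known. The text names collagen genes called by limma or by the authors, the 3 with the highest level per kb, the 2 tested members of each class with the smallest unadjusted p, and called members of the collagen-making and receptor lists or else up to 4 with the smallest p. Further members appear for their class or their neighbour. Some marker genes are not reported here by name.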

Additional observations from a re-analysis of the deposited data

How the results depend on the processing

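Of 340 refits of the 20 named collagen genes, 321 kept direction and side of the threshold, 4 passed it only under the alternative and 15 turned round. Col8a1 turned to -0.06 with edgeR, -0.05 with DESeq2 and -0.70 without control replicates 1 and 3 (a choice made after seeing the data, in which the lone control is assumed to vary like the cKO libraries), and ranged from -0.46 to 0.55 when single libraries were left out. Col8a2 turned to -0.14 with edgeR and DESeq2, -0.09 with limma-voom and -1.15 without control replicates 1 and 3, and ranged from -0.65 to 0.66. Col18a1 ranged from -0.35 to 0.21 and was 0.29 without those 2 controls, where Col3a1 was -0.04. Lower collagen genes numbered 2 with DESeq2, 1 without control replicates 1 and 3, and 0 to 1 over single libraries left out, and higher ones 0 under every alternative run. Over all genes, 145 lower became 578 with DESeq2, 61 with limma-voom, 504 without those 2 controls and 42 to 347 over single libraries left out. The 45 higher became 280, 10, 271 and 1 to 117, and 82 with no filter. Called collagen-making genes were 3 higher and 2 lower without those 2 controls, and 0 to 2 higher over single libraries left out. The 2 lower receptors became 1 with a pseudocount of 0.5, no filter, TMM scaling, edgeR or the replicate block, 0 with limma-voom, 3 with DESeq2, and 0 to 1 over single libraries left out. The causes were not tested. Libraries with the same replicate number had deviations from their group means with r of 0.008, -0.176 and 0.044. With 3 libraries per group such values cannot tell whether the animals were paired. With the number as a replicate block 183 genes were called, 0 of them collagens, and Col5a3 had an adjusted p of 0.0929. Depth limits Col2a1, Col9a1, Col10a1, Col4a6 and Col9a2, which have few or no reads in some libraries.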
